A study of Arabidopsis thaliana with 9 samples.

Results

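The comparison here set an Arabidopsis thaliana line that overexpresses RPGE2 against the glk1 glk2 double mutant, and asked where repression of GLK activity by RPGE2 and loss of GLK1 and GLK2 give the same gene expression and where they part. The lines were never divided by each other directly: the measure was the log2 ratio of RPGE2-OX over the wild type minus the log2 ratio of glk12 over the same wild type, both taken from the authors' deposited table. Genes entered when both ratios were finite and both q values, the false discovery rates beside them, were below 1, which held for 21380 of the 37328 genes listed (57.3%). There were 3 RPGE2-OX samples, 3 glk12 samples and 3 wild-type samples, all in the ecotype Col-0 and all whole seedlings. After 3 days in the cold at 4 °C, they spent 7 days at 22 °C under constant white light (50 µmol/m2/s). The 2 mutant genotypes were labelled as RPGE2 overexpression and as the glk1/2 double mutant, and the wild type carried neither. The sources used here do not name the promoter of the overexpression construct or the number of independent lines. The table held 1 ratio per gene and line and no value per sample, so the spread between the 3 samples of a group is seen only through the q values, and that spread may be technical where nothing says that samples came from separate plants. In whole seedlings, fewer cells of a type and less RNA per cell cannot be told apart.

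GLK1 and GLK2 (GOLDEN2-LIKE) are a redundant pair of nuclear transcription factors that switch on genes for the light-harvesting antenna, the photosystems and chlorophyll synthesis, so that nuclear supply keeps pace with chloroplast development. Plants without both are pale green. RPGE2 belongs to a group of small proteins that repress GLK activity, so an overexpressor keeps the GLK genes but is expected to have less of their output.

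Many genes were called against the wild type in each line, and few differences between the lines were called. The 2 kinds of call come from unlike tests, and the test of the difference errs towards missing genes. Their counts are therefore no measure of agreement. At a q below 0.05 in the authors' deposited table, 542 of the compared genes rose and 850 fell in RPGE2-OX, or 2.54% and 3.98%. In glk12, 544 rose and 657 fell, or 2.54% and 3.07%. The difference between the lines was called at a false discovery rate of 0.05 (two-sided normal approximation, Benjamini-Hochberg over all 21380 genes) at 32 genes, of which 13 were higher in RPGE2-OX (0.0608%) and 19 were lower (0.0889%). Without adjustment, 769 genes had a p below 0.05. Conversely, the 95% interval of the difference lay within 2-fold in either direction at 13788 genes (64.5%), and at 348 genes that were called in both lines. The median difference over all genes was -0.0015 on the log2 scale, and the median standard error (SE) of a difference was 0.304.

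The test of the difference was a normal approximation on deposited ratios, since the table gives no sample values from which an exact test could be made. With 3 samples a line such a p is approximate, so single genes are given below with their SE and whether they were called, and with no p of their own. The SE of each ratio was worked out from its own p, and the 2 variances were added, so the error of the shared wild type counts once in each ratio although it cancels in the difference. With the summed variance halved, 131 genes were higher in RPGE2-OX (0.613%) and 280 were lower (1.31%), including all 32. The difference over its SE had a spread of 0.73 with the summed variance and 1.03 with the halved variance. This spread is a standard deviation worked out from the interquartile range. The halved variance thus lies nearer to the standard normal that the test assumes. For most genes the main SEs and intervals are therefore likely too wide. With the halved variance 16350 intervals lay within 2-fold. The table's lowest p is 5e-05, and a ratio at that p has only an upper bound for its SE. Of the 293 genes at the lowest q in both lines with the same sign, none was called, and the highest ratio of difference to SE among them was 3.03 where a call needed 3.96. For the genes that fell most in both lines, a missing call is therefore no sign of equal loss.

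**Figure D1:**
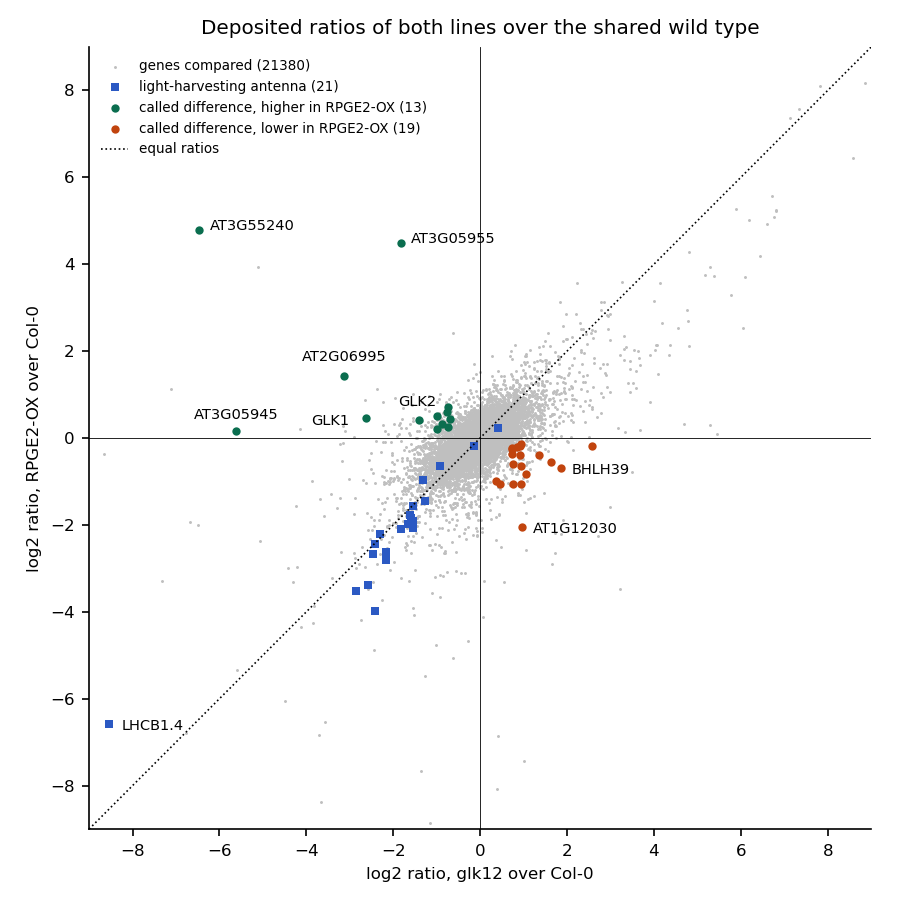
Each grey point is 1 of the 21380 compared genes, with its deposited log2 ratio in glk12 on the horizontal axis and in RPGE2-OX on the vertical axis; the 14 genes beyond 9 in size on an axis are not drawn. Both axes divide by the same wild-type samples, so errors of the wild type move a point along the dotted line of equal ratios. The 13 called genes higher in RPGE2-OX (green) lie above the line at upper left, the 19 lower ones (orange) lie below it at right, and the 21 antenna genes (blue squares) run down the line.

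The GLK genes themselves went opposite ways in the 2 lines. In the authors' deposited table GLK1 had a log2 ratio of -2.64 in glk12 and 0.45 in RPGE2-OX, and the difference of 3.09 ± 0.66 (SE) was called. GLK2 had deposited ratios of -1.41 and 0.40, a difference of 1.81 ± 0.37 that was also called. Both GLK transcripts thus fell in glk12, as its label has it, and rose in RPGE2-OX at q values of 0.0132 and 0.0379.

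The largest called difference belonged to AT3G55240 on chromosome 3, 1 of the 4 loci listed for this comparison as the RPGE family. The RefSeq annotation describes it as a plant protein of unknown function. Its deposited log2 ratio was 4.79 in RPGE2-OX and -6.46 in glk12, a difference of 11.25 ± 1.98 that was called. No locus is paired with the name RPGE2 in the table or the annotation, so this rise was not used to check the overexpressor's label. Whether the rise comes from the overexpression construct was not tested. AT1G10657, listed beside it, fell in both lines, with deposited ratios of -5.47 in RPGE2-OX and -1.27 in glk12. Its difference of -4.20 ± 1.38 was not called, but was with the halved variance. AT5G02580 was called in neither line, at -0.32 and -0.72, and AT3G28990 was listed at 0 in both with a q of 1.

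Of the 32 called genes, 13 were called in both lines with opposite signs, and these were all the opposite calls in the table. Another 14 were called in glk12 alone and 5 in RPGE2-OX alone, and none was called in both with the same sign. The last count was set almost wholly by the test: for 2 ratios of the same sign the difference over its SE cannot exceed 4.06, the normal quantile of the lowest p, and a call needed 3.96. It therefore does not show that changes in the same direction were equal in size.

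Of the 19 genes lower in RPGE2-OX than in glk12, 18 were protein-coding (94.7%), near the 92.0% of all genes compared. Several are known from iron, cold, calcium and defence biology. COR15A, a cold-induced protein of the chloroplast stroma, had deposited log2 ratios of -1.05 in RPGE2-OX and 0.94 in glk12, a difference of -1.99 ± 0.36. CAX7, a cation and calcium exchanger, had ratios of -0.82 and 1.05, a difference of -1.87 ± 0.42. The iron regulators BHLH39, BHLH38 and BHLH100 and the defence genes LOX4 and ORA59 are described with their pathways. AT1G12030 had the largest negative difference, -3.02 ± 0.76, from deposited ratios of -2.05 and 0.98, but its call was lost on centring by the reference genes and without ratios of 0 or of 5 and more.

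AT1G76960, annotated as a transmembrane protein, rose in glk12 alone, with deposited ratios of -0.18 in RPGE2-OX and 2.57 in glk12. AT1G13609, a defensin-like gene, did so with -0.38 and 1.35. The ankyrin-repeat gene AT2G24600 (difference -1.11 ± 0.25) and the pseudogene AT4G16870 (-1.12 ± 0.27) were also called in glk12 alone. AT2G14247 and AT1G22890 were called with opposite signs, with differences of -1.58 ± 0.29 and -1.37 ± 0.31. The mannose-binding lectin gene AT5G35940 fell in RPGE2-OX alone, with deposited ratios of -1.06 and 0.46.

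Outside the naming rule, and chosen because they complete the 32, were RBOHD, PMT5, ASN1 and RPP4. RBOHD, the NADPH oxidase of the pathogen-triggered oxidative burst, had a difference of -1.08 ± 0.27. PMT5, a polyol and sugar transporter, differed by -1.04 ± 0.25. ASN1, an asparagine synthetase that is induced when sugar is short, differed by -0.99 ± 0.23. RPP4, an immune receptor of the TIR class, differed by -0.94 ± 0.22. All 4 rose in glk12 and were not called in RPGE2-OX. AT4G16870 ends at base 9488397 of chromosome 4 and RPP4 begins at base 9488466, so these 2 calls come from neighbouring loci.

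**Figure D2:**
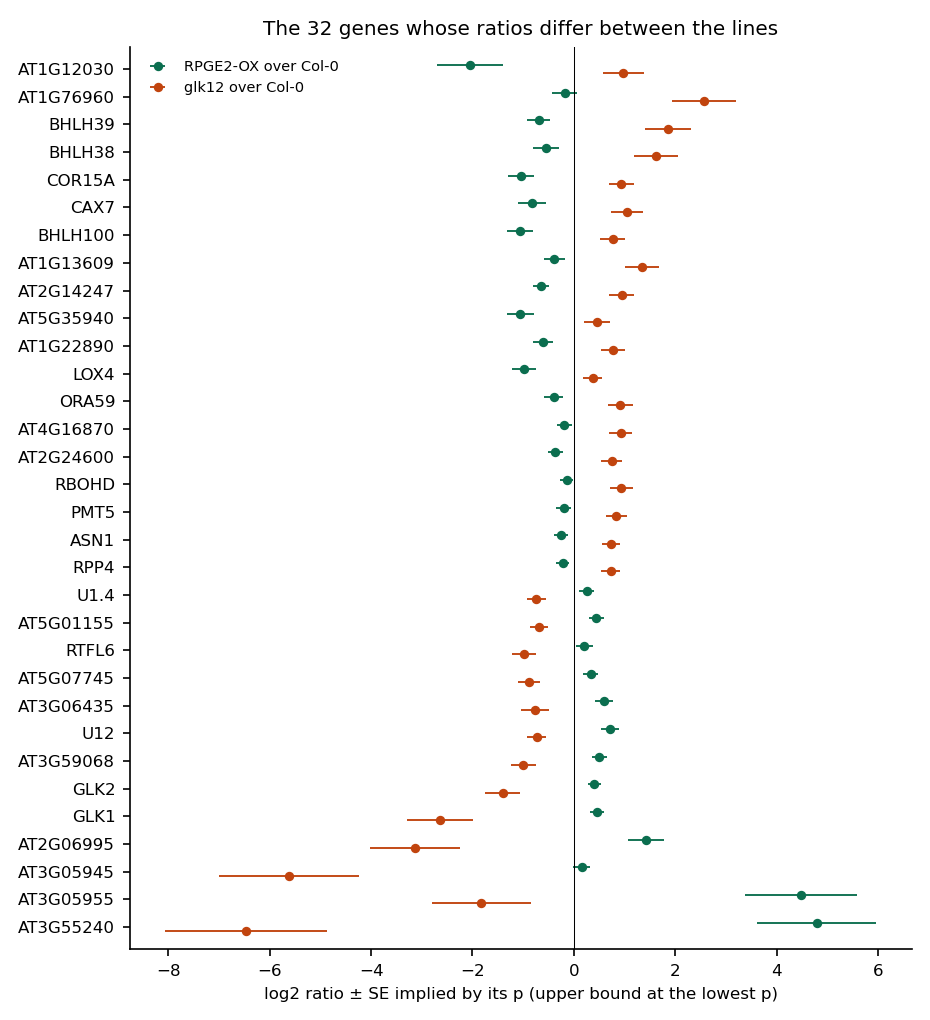
For each of the 32 called genes, points give the deposited log2 ratio over the wild type in RPGE2-OX (green) and glk12 (orange), and bars give 1 SE implied by its p, which is an upper bound at the lowest p. From the top down to RPP4 the RPGE2-OX point lies left of the glk12 point, and from U1.4 down it lies right; the widest separation is at AT3G55240.

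The 13 genes called higher in RPGE2-OX than in glk12 were for the most part not protein-coding. Only 5 were protein-coding, against 92.0% of all genes compared. Another 6 were annotated as long non-coding RNAs, against 4.70%, and 2 as spliceosomal small nuclear RNAs, against 0.154%. The wider set called higher with the halved variance was mostly protein-coding. It held 104 coding genes of 131, with 13 long non-coding RNAs and 7 small nuclear RNAs. Among the 13, beside GLK1, GLK2 and AT3G55240, the coding genes were RTFL6, which encodes a small ROTUNDIFOLIA-like peptide (difference 1.19 ± 0.29), and AT3G06435 (1.36 ± 0.32). The non-coding loci AT3G05955 and AT3G05945 had the next largest differences, 6.31 ± 1.47 and 5.77 ± 1.39. AT3G05955 rose in RPGE2-OX, with a deposited ratio of 4.48, and AT3G05945 fell in glk12, with -5.62. AT2G06995 was called in both, at 1.43 in RPGE2-OX and -3.13 in glk12. AT3G59068 (1.49 ± 0.28), AT5G07745 (1.21 ± 0.27) and AT5G01155 (1.13 ± 0.23) had smaller differences. AT3G59068, AT5G01155, AT3G06435, AT2G14247, ASN1 and BHLH38 each overlap a gene annotated on the opposite strand, and the sources used here do not say whether the authors counted by strand.

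Some small nuclear RNAs, the RNA parts of the spliceosome, fell in glk12. Of 33 compared, 6 fell in glk12, where 3.07% of all genes fell. In RPGE2-OX 1 rose, near the 2.54% of all genes. The 6 were U12, U5.6 and copies of U1, and no U2, U4 or U6 RNA was called in either line. Of the 33 differences, 12 were below 0 and 21 above. U12, of the minor spliceosome, had deposited log2 ratios of 0.72 in RPGE2-OX and -0.73 in glk12, a difference of 1.45 ± 0.25. U1.4 had 0.25 and -0.74, a difference of 0.99 ± 0.23. With the halved variance 7 of the 33 were higher in RPGE2-OX and none lower, and besides U12 and U1.4 these were U1.2, U1.5, U1.8, U1.10 and U5.6. The median difference of the class was 0.21. Copies of U1 are nearly alike in sequence, and how the authors' counting divided reads between them is uncertain. These RNAs carry no poly(A) tail and the libraries were made from total RNA; the part of library preparation in their difference was not tested.

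The photosynthetic programme is where the lines ran side by side. Of 21 antenna genes, 19 fell in RPGE2-OX and 19 fell in glk12, with median log2 ratios of -2.06 and -1.67 in the authors' deposited table, against medians of 0.01 in both lines over all genes. Of all genes, 3.98% fell in RPGE2-OX and 3.07% in glk12, and the intervals of 64.5% lay within 2-fold. The same shares apply to the counts of photosystem, electron transport, chlorophyll and Calvin-Benson genes below. The antenna proteins hold chlorophyll and pass light energy to the photosystems. LHCB1.4, an LHCII gene, fell most, with deposited ratios of -6.58 in RPGE2-OX and -8.55 in glk12. LHCB2.2 had -3.98 and -2.41, LHCB2.3 had -3.52 and -2.86, and LHCB3 had -3.37 and -2.57. LHCB1 and LHCB2 copies are nearly alike, so values of single copies are uncertain.

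No antenna gene was called in the difference, also with the halved variance. The differences ran from -1.56 at LHCB2.2 to 1.97 at LHCB1.4, with a median of -0.20, and 17 of 21 were below 0, where all genes divided into 10741 below and 10639 above. The 95% interval of LHCB2.2 ran from -3.81 to 0.69. Only 3 antenna genes had an interval within 2-fold, since 18 of them sat at the lowest q in both lines and kept the upper bound as SE. The 2 that were called in neither line were LHCA5, at -0.18 and -0.14, and LHCB7, at 0.23 and 0.42.

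Photosystem genes fell by about the same amount in each line. All 12 nuclear photosystem I genes fell in both, with medians of -1.57 in RPGE2-OX and -1.54 in glk12. PSAD2, PSAH2 and PSAE1, which encode subunits of its reaction centre, had deposited log2 ratios of -2.22, -2.17 and -2.04 in RPGE2-OX and -2.26, -2.26 and -2.45 in glk12. PSAE2 had -1.93 and -1.67. The 12 differences ran from -0.29 to 0.41, and none was called, but none of their 95% intervals lay within 2-fold. Of 13 photosystem II genes, 11 fell in RPGE2-OX and 10 in glk12, and the intervals of 12 lay within 2-fold.

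PSBQ2, an extrinsic protein of the oxygen-evolving complex, stood at -2.22 in each deposited column; its interval reached 1.52 in either direction. PSBTN had -1.36 and -1.37, PSBP1 -1.20 and -1.28, and PSBW -1.07 and -1.13, and the intervals of these 3 lay within 2-fold. In electron transport and ATP synthase, 6 of 10 genes fell in each line. PETE1, a plastocyanin, had -1.96 and -1.94, whereas PETE2 had -0.72 and -1.33, a difference of 0.61 ± 0.38 that was not called. The ferredoxin FD2 had -0.75 and -1.14, and the ATP synthase subunit ATPD had -0.91 and -0.95.

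**Figure D3:**
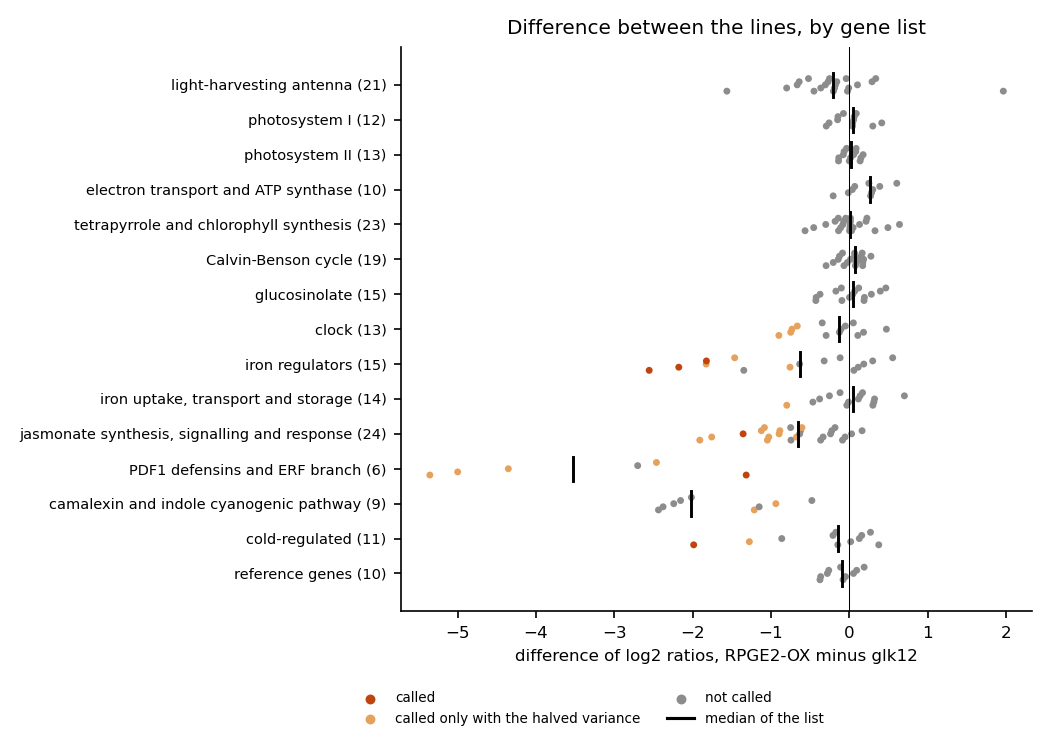
Each point is 1 gene, placed by its difference of log2 ratios (RPGE2-OX minus glk12), with lists in rows, the number of genes in brackets and the median as a black bar. Photosynthesis, Calvin-Benson and glucosinolate lists sit around 0 with no call, while iron regulators, jasmonate genes, PDF1 defensins and camalexin genes have medians below -0.6.

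In chlorophyll synthesis, too, many genes fell in each line. Of 23 genes compared, 13 fell in each line and 18 had an interval within 2-fold, with a median difference of 0.01. HEMA1, which encodes the glutamyl-tRNA reductase that starts the pathway, had deposited log2 ratios of -1.65 in RPGE2-OX and -1.66 in glk12. The magnesium chelatase subunit CHLH had -1.26 and -1.12, its activator GUN4 had -1.91 and -1.76, and the cyclase CRD1 had -1.27 and -1.08. PORB, a protochlorophyllide oxidoreductase, had -2.02 and -1.46, and CAO, which makes chlorophyll b, had -1.97 and -1.52. The intervals of CHLH and CRD1 lay within 2-fold, and those of HEMA1, GUN4, PORB and CAO did not. Of the Calvin-Benson cycle, which fixes carbon, 4 of 19 genes fell in RPGE2-OX and 3 in glk12, and 18 intervals lay within 2-fold. Among the 4, RBCS3B had -0.74 and -0.82, GAPA2 -0.87 and -0.73, and HCEF1 -0.43 and -0.61.

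Few of the compared genes in the chloroplast's own genome were called in either line. Those not compared lacked a test in RPGE2-OX, in glk12 or in both, so nothing is known of their difference. Of 133 listed, 73 could be compared; 1 rose and 3 fell in RPGE2-OX, and 1 rose and 1 fell in glk12, both shares near those of all genes. The intervals of 63 lay within 2-fold. The largest negative difference was at ATCG00560, -0.91 ± 0.23, from deposited ratios of -0.41 and 0.51. It was called with the halved variance alone, with which 2 of the 73 were lower in RPGE2-OX and none higher. ATCG00330 fell in RPGE2-OX at -0.73, ATCG00080 fell in glk12 at -0.61 and ATCG00065 rose in glk12 at 0.80.

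Promoters were read for 2 motifs on both strands, the letters CCAATC, described for GLK-bound promoters, and CACGTG, the G-box. The windows were the 250 bases before the RefSeq gene start (build TAIR10.1). CCAATC stood in 10 of 21 antenna windows (47.6%) and in 10.5% of the 19664 windows of all coding genes compared; CACGTG stood in 5 antenna windows (23.8%) and in 7.29% of all. None of the 12 photosystem I windows held CCAATC, although all 12 genes fell in both lines. Of the 342 windows of genes called in both lines within 2-fold, 12.9% held CCAATC. Shown here are an antenna window with CCAATC, an antenna window with both motifs, and the window of PSBQ2, whose ratio was the same in both lines. Each is written 5′ to 3′ on the gene's strand with motifs, or their reverse complement, in capitals; they lie at chr2:1800473-1800722 (minus strand), chr3:10255656-10255905 (plus) and chr4:2673244-2673493 (minus). A match describes the letters and does not show binding.
LHCB2.2: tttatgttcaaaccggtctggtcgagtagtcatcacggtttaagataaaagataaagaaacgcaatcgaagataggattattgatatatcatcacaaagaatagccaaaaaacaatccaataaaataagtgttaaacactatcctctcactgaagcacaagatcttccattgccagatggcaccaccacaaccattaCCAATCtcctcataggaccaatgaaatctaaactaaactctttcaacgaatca
LHCB2.3: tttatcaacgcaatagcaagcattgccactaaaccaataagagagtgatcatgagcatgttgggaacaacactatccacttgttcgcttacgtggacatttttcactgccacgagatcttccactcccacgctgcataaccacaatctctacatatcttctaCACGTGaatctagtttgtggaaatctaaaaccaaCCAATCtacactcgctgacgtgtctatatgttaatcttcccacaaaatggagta
PSBQ2: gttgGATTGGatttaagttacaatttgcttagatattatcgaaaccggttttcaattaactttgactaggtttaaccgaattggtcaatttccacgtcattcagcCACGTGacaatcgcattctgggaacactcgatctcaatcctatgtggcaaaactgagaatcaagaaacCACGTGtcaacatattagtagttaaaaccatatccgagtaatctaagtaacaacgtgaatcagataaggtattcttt

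Iron genes divided between regulators and uptake. Seedlings short of iron raise a set of basic helix-loop-helix factors (BHLH38, BHLH39, BHLH100 and BHLH101), which pair with the factor FIT to switch on the reductase FRO2 and the iron transporter IRT1. Of 15 regulators compared, none rose and 2 fell in RPGE2-OX, while 5 rose and none fell in glk12, and 3 were called lower in RPGE2-OX than in glk12. Of all genes, 2.54% rose and 3.98% fell in RPGE2-OX, 2.54% rose and 3.07% fell in glk12, and 0.0889% were called lower. BHLH39 had deposited log2 ratios of -0.69 in RPGE2-OX and 1.86 in glk12, a difference of -2.56 ± 0.51. BHLH38 had -0.55 and 1.62, a difference of -2.18 ± 0.50. BHLH100 had -1.06 and 0.77, a difference of -1.82 ± 0.36.

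BHLH101 had an SE of 2.19 on its difference of -1.35 and gave no information. With the halved variance, 3 further regulators were lower in RPGE2-OX, which were AT1G47395, AT1G47400 and BTS, an E3 ligase that restrains the iron response. Their deposited ratios were 0.05, -0.13 and -0.33 in RPGE2-OX and 1.87, 1.33 and 0.42 in glk12. FIT was called in neither line, at -0.33 and -0.52, with an interval within 2-fold. BHLH38 and BHLH39 lie next to each other on chromosome 3.

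The uptake genes did not follow the split. IRT1 rose in both lines, with deposited log2 ratios of 1.23 in RPGE2-OX and 1.09 in glk12, and the interval of its difference ran from -0.65 to 0.93. FRO2 rose with 1.00 and 1.12, from -0.84 to 0.60. CYP82C4, which makes an iron-mobilising coumarin, rose with 1.26 and 1.27, from -0.88 to 0.86. All 3 intervals lay within 2-fold. NAS1, a nicotianamine synthase, fell in both at -0.62 and -0.59. Of all 14 uptake, transport and storage genes, 3 rose and 2 fell in RPGE2-OX, and 4 rose and 1 fell in glk12. The intervals of 10 lay within 2-fold, a share near the 64.5% of all genes. OPT3, which loads iron into the phloem, had -0.21 and 0.59 and was lower in RPGE2-OX with the halved variance.

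**Figure D4:**
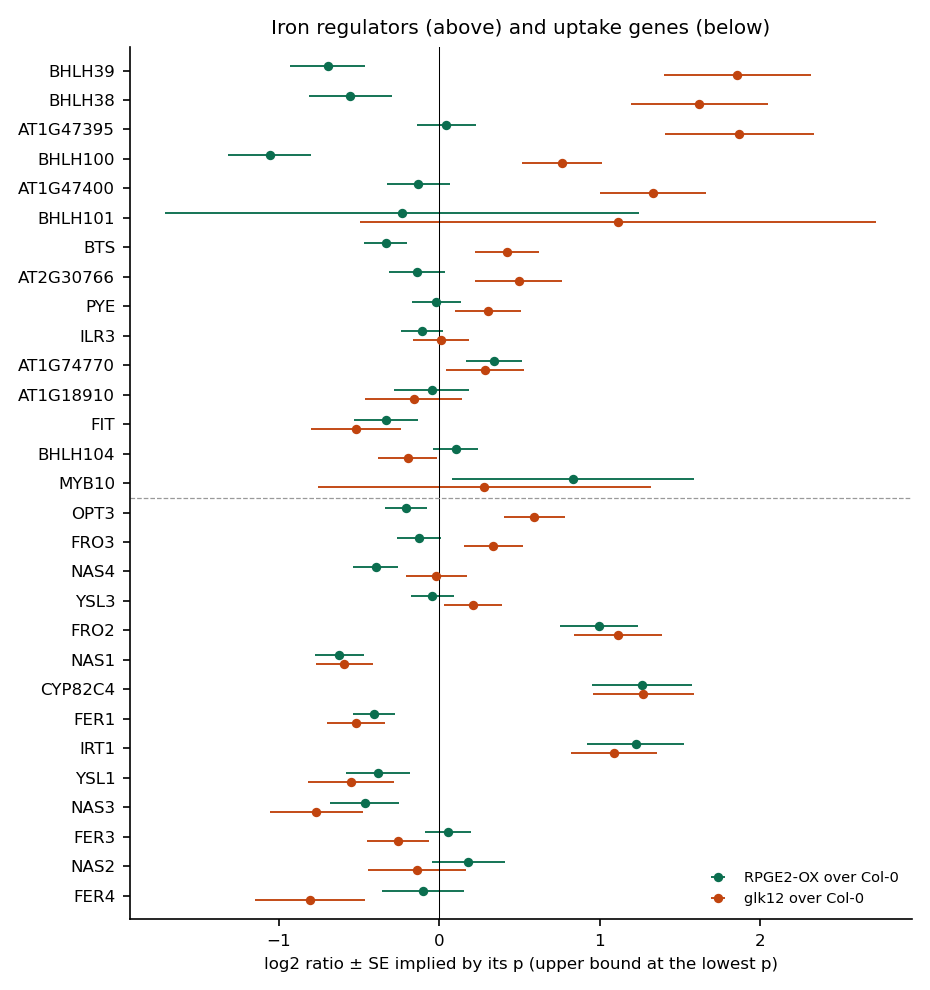
Points give deposited log2 ratios over the wild type in RPGE2-OX (green) and glk12 (orange) for 15 iron regulators above the dashed line and 14 uptake, transport and storage genes below it, with bars of 1 SE implied by p. At BHLH39, BHLH38 and BHLH100 the points lie on opposite sides of 0, and at IRT1, FRO2 and CYP82C4 they lie together near 1.

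The windows of BHLH38, BHLH100 and COR15A, whose differences were all called, each hold 1 CACGTG and no CCAATC. Over the 18 windows of coding genes lower in RPGE2-OX, 6 held CACGTG (33.3%, against 7.29% of all) and none held CCAATC. CAX7 and ORA59 were among the 6. Such a share is not particular to genes that part between the lines. In lists without a called difference it ran from 0% (salicylic acid and reference genes) to 35.7% (flavonoid genes) and 46.2% (clock genes). None of the 5 windows of coding genes higher in RPGE2-OX held either motif. The 3 windows lie at chr3:21085246-21085495, chr2:17199455-17199704 and chr2:17712331-17712580, all on the minus strand, written as above with CACGTG in capitals.
BHLH38: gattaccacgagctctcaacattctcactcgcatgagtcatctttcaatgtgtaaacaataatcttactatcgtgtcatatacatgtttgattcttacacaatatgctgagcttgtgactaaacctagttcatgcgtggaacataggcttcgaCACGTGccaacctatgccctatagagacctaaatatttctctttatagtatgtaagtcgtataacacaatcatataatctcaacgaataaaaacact
BHLH100: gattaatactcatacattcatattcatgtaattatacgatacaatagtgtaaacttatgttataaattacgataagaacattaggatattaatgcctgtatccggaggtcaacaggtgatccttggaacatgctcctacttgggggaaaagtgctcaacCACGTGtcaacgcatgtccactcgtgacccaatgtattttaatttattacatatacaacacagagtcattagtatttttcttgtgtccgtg
COR15A: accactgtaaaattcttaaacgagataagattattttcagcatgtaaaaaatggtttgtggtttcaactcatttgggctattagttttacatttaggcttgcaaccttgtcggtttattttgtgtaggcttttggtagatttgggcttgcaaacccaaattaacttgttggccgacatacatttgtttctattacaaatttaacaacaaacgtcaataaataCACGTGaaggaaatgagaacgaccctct

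Jasmonate genes fell in RPGE2-OX and for the most part were not called in glk12. Jasmonate is the wound and defence hormone made from chloroplast lipids by lipoxygenases (LOX), AOS, AOC and OPR3; its response is driven by MYC2 and held back by JAZ proteins. Of 24 genes compared, 15 fell and none rose in RPGE2-OX, and 2 fell and none rose in glk12. Among all genes 3.98% fell in RPGE2-OX and 3.07% in glk12, and 2.54% rose in each line. The median log2 ratios were -0.76 and 0.01, and 22 of 24 differences were below 0, with a median of -0.65. The difference of 1 gene, LOX4, was called: its deposited ratios were -0.98 and 0.38, a difference of -1.36 ± 0.31. With the halved variance 11 were lower and none higher in RPGE2-OX.

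The 2 genes called in both lines were AOS, with deposited ratios of -1.21 in RPGE2-OX and -0.58 in glk12, and CORI3, a jasmonate-responsive lyase, with -1.38 and -1.16. The others named here were picked after their values were seen. MYC2 had -1.41 and 0.50, a difference of -1.91 ± 0.58 that was called with the halved variance alone. The storage protein gene VSP2, a common jasmonate marker, had -2.10 and -0.35. VSP1, listed beside it, did not fall: it had 0.16 and 0.78 and was called in neither line. Among synthesis genes LOX3 had -0.94 and 0.09, AOC1 -0.99 and 0.06, and OPR3 -0.60 and 0.29. MYC3, MYC4, AOC4 and JAR1 had intervals within 2-fold.

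**Figure D5:**
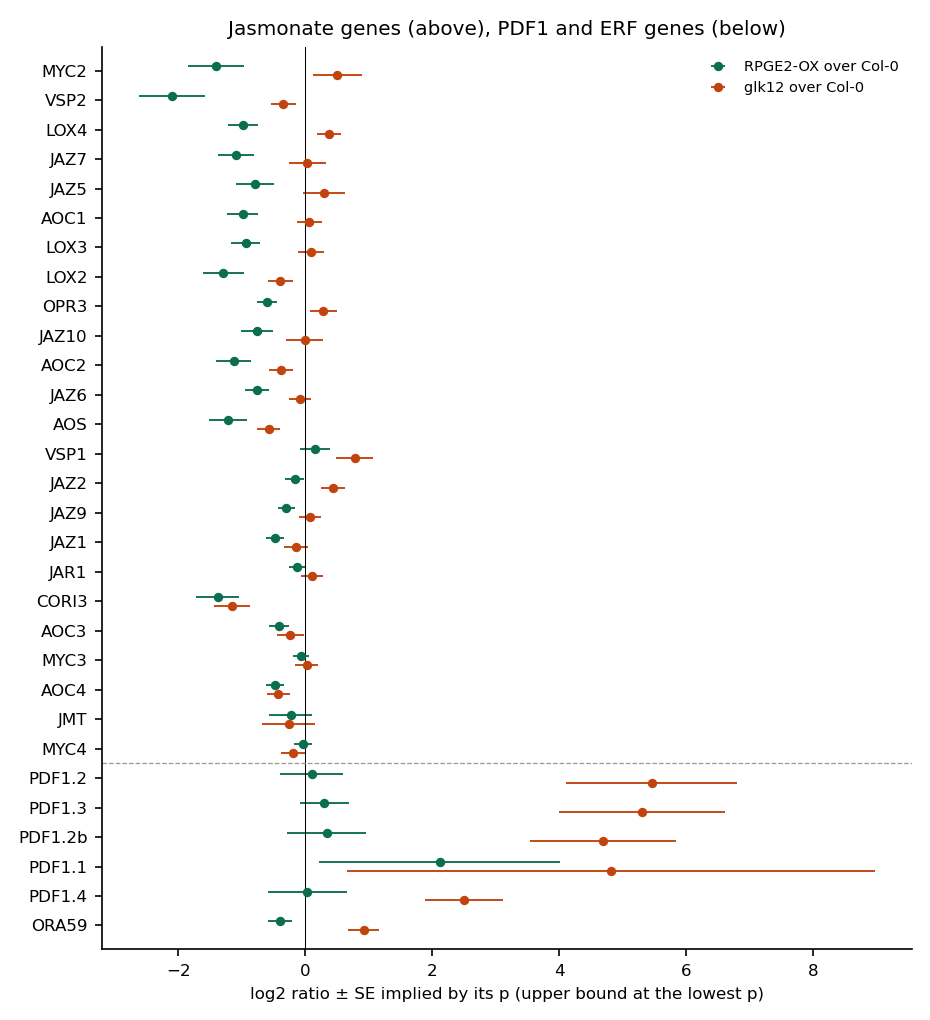
Points give deposited log2 ratios over the wild type in RPGE2-OX (green) and glk12 (orange) for 24 jasmonate genes above the dashed line and 6 PDF1 and ERF genes below it, with bars of 1 SE implied by p. In the upper block most RPGE2-OX points lie left of 0 with glk12 points near 0; in the lower block PDF1.2, PDF1.3 and PDF1.2b lie near 5 in glk12 and near 0 in RPGE2-OX.

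Of 6 genes compared in the defensin branch, 5 rose in glk12, where 2.54% of all genes rose, and none was called in RPGE2-OX. ORA59, the ERF factor through which jasmonate and ethylene switch on defensins, had deposited log2 ratios of -0.40 in RPGE2-OX and 0.92 in glk12, and the difference of -1.32 ± 0.31 was called. PDF1.2 had 0.10 and 5.46, PDF1.3 0.30 and 5.30, PDF1.2b 0.33 and 4.69, and PDF1.4 0.03 and 2.50. These 4 differences, from -5.36 to -2.46, were called with the halved variance alone. PDF1.1 was called in neither line, with 2.11 and 4.82 and an SE of 4.57 on its difference. PDF1.2c and ERF1 could not be compared. PDF1 copies are nearly alike, so single copies are uncertain.

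Camalexin and indole cyanogenic genes, which make tryptophan-derived antimicrobial compounds, rose in both lines. Of 9 compared, 6 rose in RPGE2-OX and 7 in glk12, where 2.54% of all genes rose in each line. The median deposited log2 ratios were 2.14 and 4.38, and all 9 differences were below 0. CYP71A12 had 5.58 and 6.73, AT1G26380 3.71 and 6.09, GSTU4 2.14 and 4.38, and CYP71B15, which completes camalexin, 2.54 and 4.56. None was called, and with the halved variance 2 were lower in RPGE2-OX, CYP79B2 and CYP71B6. Of 9 salicylic acid genes, 1 rose and 2 fell in RPGE2-OX and 2 rose and 2 fell in glk12. Among all genes 3.98% fell in RPGE2-OX and 3.07% in glk12. With the halved variance 1 salicylic acid gene was lower in RPGE2-OX. ICS1, which makes salicylic acid, fell in both at -1.79 and -1.42, as did EDS1 at -0.44 and -0.61.

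The light-signalling, B-box, shade-avoidance and clock lists held no called difference. Over all genes only 0.0608% were called higher and 0.0889% lower, so lists of this size would hold few or none. Against the wild type, 2.54% of all genes rose and 3.98% fell in RPGE2-OX, and 2.54% rose and 3.07% fell in glk12. The intervals of 64.5% of all genes lay within 2-fold. Of 20 light-signalling and plastid regulators, 3 rose and 4 fell in RPGE2-OX, 1 rose and 1 fell in glk12, and 18 intervals lay within 2-fold. GNC, a GATA factor that promotes greening, rose in both at 0.71 and 0.56, and the plastid sigma factor SIG1 fell at -1.39 and -1.47. HY5, picked after its value was seen, had 0.58 and -0.02, a difference of 0.61 ± 0.25 called with the halved variance alone. Of 16 B-box factors, 3 fell in RPGE2-OX, and 4 fell and 1 rose in glk12, and 6 intervals lay within 2-fold. BBX16 had -2.36 and -5.07, BBX15 -0.95 and -1.34, and BBX14 -0.45 and -1.001, and none of their differences was called. With the halved variance 1 other B-box factor was higher in RPGE2-OX and none lower.

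Of 15 shade-avoidance genes, 1 rose and 5 fell in RPGE2-OX and 2 fell in glk12, and 6 intervals lay within 2-fold. With the halved variance 1 was higher in RPGE2-OX and none lower. FHL, a partner of phytochrome A, had deposited log2 ratios of -1.11 and -1.58, and PAR2 had -0.54 and -0.85. Of 13 clock genes, 2 rose in each line and none fell, and 8 intervals lay within 2-fold, near the share of all genes (64.5%). LHY and RVE1, both expressed in the morning, rose in RPGE2-OX at 0.46 and 0.52, with -0.01 and 0.33 in glk12. TOC1 and PRR5 rose in glk12 at 0.67 and 0.83, with 0.37 and 0.10 in RPGE2-OX. With the halved variance 4 clock genes were lower in RPGE2-OX, PRR5, PRR7, PRR9 and GI, and none was called in the main test.

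In secondary metabolism the aliphatic glucosinolate genes fell in both lines. Of 15 compared, 13 fell in RPGE2-OX and 10 in glk12, where 3.98% and 3.07% of all genes fell. The median deposited log2 ratios were -0.67 and -0.87. The intervals of 11 lay within 2-fold, near the share of all genes (64.5%). MYB29, a factor that drives them, had -1.15 and -1.43; CYP79F1 had -0.86 and -1.05, FMOGS-OX1 -0.999 and -0.904, and FMOGS-OX3 -1.04 and -0.87. Of 14 flavonoid and anthocyanin genes, 2 rose and 4 fell in RPGE2-OX, and 1 rose and 1 fell in glk12, where 2.54% of all genes rose in each line. LDOX, which makes anthocyanidins, had -2.44 and -1.03, a difference of -1.41 ± 0.68 that was not called. DFR and UF3GT were lower and FLS1 higher in RPGE2-OX with the halved variance. Of 11 cold-regulated genes, 4 fell in RPGE2-OX, 1 rose and 2 fell in glk12, and COR15A was the 1 called. With the halved variance 2 were lower in RPGE2-OX, COR15A among them. COR413IM1 fell in both at -2.39 and -1.52.

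The naming rule also took the 10 genes called in both lines with the largest mean ratio whose interval stayed within 2-fold. They are not the genes of closest agreement, because the SE at the lowest p grows with the ratio and shuts out larger ratios. PSBQ2, HEMA1 and PETE1 were left out, although their differences were 0.00028, 0.0035 and -0.012. CYP71B2, a cytochrome P450, stood at a deposited log2 ratio of -1.32 in each, and the interval of its difference ran from -0.90 to 0.90. UGT88A1, a sugar transferase, had -1.23 and -1.35. AT3G30122 rose with 1.23 and 1.34, and BT1, a BTB and TAZ domain protein, rose with 1.08 and 1.24. The remaining 6 were PSBTN, PSBP1, CHLH, CRD1, IRT1 and CYP82C4.

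Of 10 root markers, 3 fell in each line, including COBL9 at -0.68 and -0.89 and RCI3 at -0.56 and -0.69 in the authors' deposited table, and the median difference was 0.14. Among all genes 3.98% fell in RPGE2-OX and 3.07% in glk12. Of 8 stomatal markers, KAT1 alone fell, in both lines, at -0.64 and -0.82. None of 6 cell-division markers was called in either line, and none of these 3 lists held a called difference, also with the halved variance. None of the 6 seed markers could be compared, and 1 of them, the storage protein gene CRU3, rose in RPGE2-OX, with a deposited log2 ratio of 2.18 (q of 0.0046), and had no test in glk12. The 10 reference genes, such as actins and ubiquitin, were called in neither line and all had intervals within 2-fold, with medians of -0.02 in RPGE2-OX and 0.18 in glk12. Their median difference was -0.10. Centring all differences on it gave 38 calls, 25 higher and 13 lower in RPGE2-OX, so which direction holds more calls depends on the scaling. The 6 calls lost were AT1G12030, AT1G76960, AT4G16870, RBOHD, PMT5 and RPP4.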

How the data were processed

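RNA from 9 samples of whole seedlings (3 wild type, 3 glk12, 3 RPGE2-OX) was sequenced, from 1 µg of total RNA each, as stranded libraries on an Illumina NextSeq500, per the labels' protocols. Per the submitters' processing notes the tools were Cuffdiff, Cufflinks, TopHat and CASAVA 1.8.2, and the build was TAIR10. The only file is a table of the authors' comparisons: for each line a log2 ratio over Col-0 and a q value, per the file headers. The q values are false discovery rates that the authors computed and deposited. Each sample's depth is unknown, so no count interval could be given.

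A q of 1 was read as no test; 21680 genes in RPGE2-OX and 21843 in glk12 had a lower one. Each p was recovered from q by undoing the Benjamini-Hochberg adjustment. Dividing the size of a ratio by the normal quantile of this p gave its SE, which is only bounded from above where p is 5e-05, the lowest in the table. Where that quantile was below 0.1, the larger SE of the gene's 2 ratios was used. The difference (RPGE2-OX minus glk12) had the 2 variances added, a two-sided normal p and Benjamini-Hochberg adjustment over 21380 genes; 95% intervals are normal. The steps were tested on simulated data. Python 3.11.15 with scipy 1.17.1, pandas 2.3.3 and matplotlib 3.10.9 was used.

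The comparison and the 27 gene lists were chosen with earlier results of these data known. All 475 list entries matched a locus through the table and RefSeq annotation, and 391 were compared. Genes were named by rule: the GLK and RPGE loci, up to 15 called differences in each direction, up to 10 opposite calls, up to 4 members of each list called in both lines (or in 1 line where none was), and the 10 called in both with the largest ratios within 2-fold. Other named genes are marked as chosen after their values were seen, or complete a count. Promoter windows are from RefSeq TAIR10.1; its coordinates were used only for that annotation. Alternatives are given at the end. The 37 called genes with an infinite ratio entered no difference.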

Additional observations from a re-analysis of the deposited data

Results flagged for a closer look

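A group of 37 genes was called at a q below 0.05 in a line but had an infinite ratio in the authors' deposited table, and so entered no difference; the signal lies outside the comparison. Of these, 11 were infinite in RPGE2-OX alone, 8 in glk12 alone and 18 in both. No fold can be given for them, because an infinite ratio means that 1 of the 2 group values behind it was listed at 0. CYP82C2, which acts in the indole cyanogenic pathway, GLIP1, a secreted lipase, and BGLU27, a glucosidase, were infinite in both lines at the lowest q of each. Of the 11 infinite in RPGE2-OX alone, 9 were long non-coding RNAs, and of the 18 infinite in both, 13 were protein-coding. These genes were named after their values were seen.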

How the results depend on the processing

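The count of 32 differences moved most with the error model. It was 80 with errors at the lowest p borrowed from the other line (1.5 times its SE), 411 with the summed variance halved and 0 with q used as p (82 at an unadjusted p below 0.05). At a false discovery rate of 0.01 it was 12 (8 higher, 4 lower) and at 0.1 it was 62. It stayed at 32 with a quantile floor of 0.5 and with centring on all genes (a shift of -0.0015), was 29 without ratios of 0 or of 5 and more, and was 38 on centring by reference genes (a shift of -0.10), sharing 26 with the 32. Against the wild type, a q below 0.01 gave 808 genes in RPGE2-OX and 718 in glk12, and a change of at least 2-fold gave 354 and 526. The count within 2-fold was 16350 with the halved variance and 3999 within 1.5-fold. The 28 named differences that were called could not change sign under these alternatives. Only centring moves a difference, and both shifts were far smaller than the smallest of the 28, 0.99 at U1.4. On centring by reference genes 4 named differences that were not called turned from just below 0 to just above. They were at FMOGS-OX1, NAS1, PETE1 and CYP82C4. The table gives no depth and no levels, so low-expressed genes could not be set apart. No paired analysis was possible because the table holds 1 ratio per line and no values per replicate; for the same reason no replicate could be left out.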
